A study of Homo sapiens with 8 samples.

Results

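The kinase clients of HSP90 examined here were 9 kinases chosen by name, and their mRNA was compared over the 4 groups of the study. All probe sets listed under their symbol alone were taken, without regard to their values. ARAF, AKT1, CDK4, MET, IGF1R, EGFR, AXL and ERBB3 had 29 such probe sets among the 41091 probe sets of the array with a single symbol, and the ninth kinase, with whose symbol the probe annotation used here pairs no probe set, was not analysed here. RNA came from A375, a human melanoma line, and was hybridized to 8 HG-U133 Plus2 arrays, 2 in each group. One of 2 hairpins was carried, shNTC, which targets no gene, or shHSF1, which targets HSF1, and Doxycycline, given at 100 ng/mL for 3 days, induced it. NVP-HSP990, an HSP90 inhibitor, was given at 100 nM for 3 h, and 0.1% DMSO was its vehicle. The DMSO control was shNTC without Doxycycline and with DMSO, and the Doxycycline control was shNTC with Doxycycline and DMSO. The inhibitor group was shHSF1 without Doxycycline and with NVP-HSP990, and the knockdown group was shHSF1 with Doxycycline and NVP-HSP990. The protocol fields of the labels give Doxycycline for all cells, while the sample titles give it for 4 arrays, and the groups follow the titles. In the arrays analysed here all NVP-HSP990 samples were shHSF1 lines and all DMSO samples shNTC lines, so the inhibitor and the hairpin line cannot be told apart.

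HSP90 is an ATP-driven chaperone that holds many signalling proteins in a fold from which they can be activated. Protein kinases are brought to it by the cochaperone CDC37, and a kinase that has lost this support is ubiquitinated and degraded, so that client kinases are known as proteins that disappear in inhibitor-treated cells. Inhibition of HSP90 also frees HSF1, the transcription factor of the heat shock response, which binds repeats of the pentamer nGAAn in the promoters of chaperone genes. Whether the mRNA of the client kinases also moved at 3 h is the question of the comparison.

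Promoters were searched for such repeats, and 4 stretches of 100 bases upstream of the annotated start are shown. That of the inducible heat shock gene HSPA6, the only heat shock gene searched with an element of 3 units, is the reference. The others are those of AKT1, CDK4 and IGF1R, an intracellular kinase, a cell cycle kinase and a receptor among the clients. Capitals mark the heat shock element in HSPA6 (TTCNNGAANNTTC) and GC boxes (GGGCGG or CCGCCC), the sites of SP1-like factors, in the kinases, of which the IGF1R stretch holds none. Sequences are 5′ to 3′ along the gene, from RefSeq on GRCh38.p14.
HSPA6 (chr1:161524440-161524539, plus strand): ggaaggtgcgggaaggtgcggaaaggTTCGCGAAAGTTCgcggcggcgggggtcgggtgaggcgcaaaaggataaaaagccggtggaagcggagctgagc
AKT1 (chr14:104795749-104795848, minus strand): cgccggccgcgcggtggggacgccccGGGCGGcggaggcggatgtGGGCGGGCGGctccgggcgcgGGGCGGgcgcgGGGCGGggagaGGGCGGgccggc
CDK4 (chr12:57752311-57752410, minus strand): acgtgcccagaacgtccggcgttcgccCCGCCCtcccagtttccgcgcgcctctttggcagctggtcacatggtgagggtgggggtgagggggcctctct
IGF1R (chr15:98648439-98648538, plus strand): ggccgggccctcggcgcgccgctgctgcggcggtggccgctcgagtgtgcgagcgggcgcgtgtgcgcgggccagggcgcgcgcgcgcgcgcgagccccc
A heat shock element of 3 units (GAANNTTCNNGAA or TTCNNGAANNTTC, both strands) was found in 172 of 35116 promoter windows of all genes (0.490%), each from 250 bases before to 50 bases after a start. It was in 1 of 15 windows of 9 heat shock genes, that of HSPA6, and in 0 of the 10 windows listed for 7 of the kinases. The shorter form of 2 units (GAANNTTC or TTCNNGAA), which every longer element contains, was in 13.5% of all windows, in 7 of the 15 windows of the heat shock genes and again in 0 of the 10 of the kinases. Beside these shares of all windows, 0 of 10 does not set the kinases apart. ERBB3 had no entry. GC boxes were in 7 of the 10 kinase windows and in 45.0% of all windows, and TATAAA or its complement in 1 of 10 and in 11.5%. The GC content of the kinase windows had a median of 66.0% (42.0 to 83.3%), with 58.7% over all windows. A match is a description of the letters, and a window without one says nothing about binding elsewhere.

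The arrays had median signals of 10.6 to 14.2 and correlated pairwise at r = 0.964 to 0.992 over the tested probe sets (28 pairs, log2 scale). The ratio of the 3′ to the 5′ probe set of ACTB, a measure of RNA integrity, was 46.8 in the second array of the Doxycycline control and 4.73 to 18.9 in the others. HSF1 itself had signals of 38.2 and 47.3 in the DMSO control, 36.6 and 47.9 in the Doxycycline control, 99 and 42.5 in the inhibitor group, and 5.5 and 7.3 in the knockdown group. With the knockdown its log2 change was -1.87 ± 0.29 (SE; limma, adjusted p = 0.0116), which was not called without either array of the knockdown group. Of 8 melanocyte markers 7 had a probe set. MITF, SOX10 and S100B were at or above the array median in all arrays, and the pigment genes MLANA, PMEL, TYR and TYRP1 were below it in all, so that the melanocytic label rests on the former. Of 10 epithelial and hepatocyte markers 7 were below the median in all arrays and KRT14 was above it in all. Of 6 fibroblast markers COL1A1, LUM and PDGFRB were above it in all.

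No probe set of the kinase clients passed the test with NVP-HSP990, with or without knockdown of HSF1. Of the 29 probe sets 22 had a signal at or above the median of their own array in at least 2 arrays and were tested, among 24631 probe sets in all. Log2(signal + 16) was compared in 1 limma model of all 8 arrays, with p-values adjusted by Benjamini-Hochberg over all 24631. For the inhibitor group against the DMSO control, 0 of 22 had an adjusted p under 0.05 (background 0.134% of all probe sets tested, 33 probe sets), and 1 of 22 had an unadjusted p under 0.05 (background 4.45%). For the knockdown group against the Doxycycline control, it was 0 of 22 (background 3.98%, 981 probe sets) and 3 of 22 unadjusted (background 18.4%). These comparisons shared no array. Averaged over Doxycycline, with 4 arrays against 4, it was 0 of 22 (background 1.68%) and 4 of 22 unadjusted (background 15.8%). The arrays of the compared groups did not overlap for 7 of 22 probe sets without Doxycycline (background 33.7%). With Doxycycline it was 10 of 22 (background 43.5%). Whether arrays of 1 group are separate cultures is not in the labels, so that p-values measure the spread between arrays only.

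The median log2 change of the 22 probe sets was -0.04 with NVP-HSP990, beside 0.0028 over all probe sets tested, and the single values ran from -0.65 to 0.42. With Doxycycline the median was 0.04, beside 0.02 over all, with values from -0.88 to 0.75. On the scale of log2(signal + 16), none of the 22 moved beyond 2-fold in any of the 6 comparisons made. Of all probe sets tested, 0.0244% to 2.90% did, depending on the comparison. The added 16 makes changes and intervals of dim probe sets smaller. On this scale 2-fold is more than 2-fold in signal, most of all for MET 213807_x_at, EGFR 211551_at and IGF1R 243358_at (lowest signals of 2.2, 6.1 and 2.3). MET 211599_x_at, EGFR 210984_x_at and EGFR 211607_x_at came next, with lowest signals of 11.1, 14.3 and 18.4. A missed threshold does not show that mRNA stayed level, and the 95% intervals give what these arrays allow. They lay within 2-fold either way for 19 of 22 probe sets with NVP-HSP990, for 16 with Doxycycline added and for all 22 in the average. Their half-widths were 0.33 to 0.95 on the log2 scale in each of the single comparisons.

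**Figure D1:**
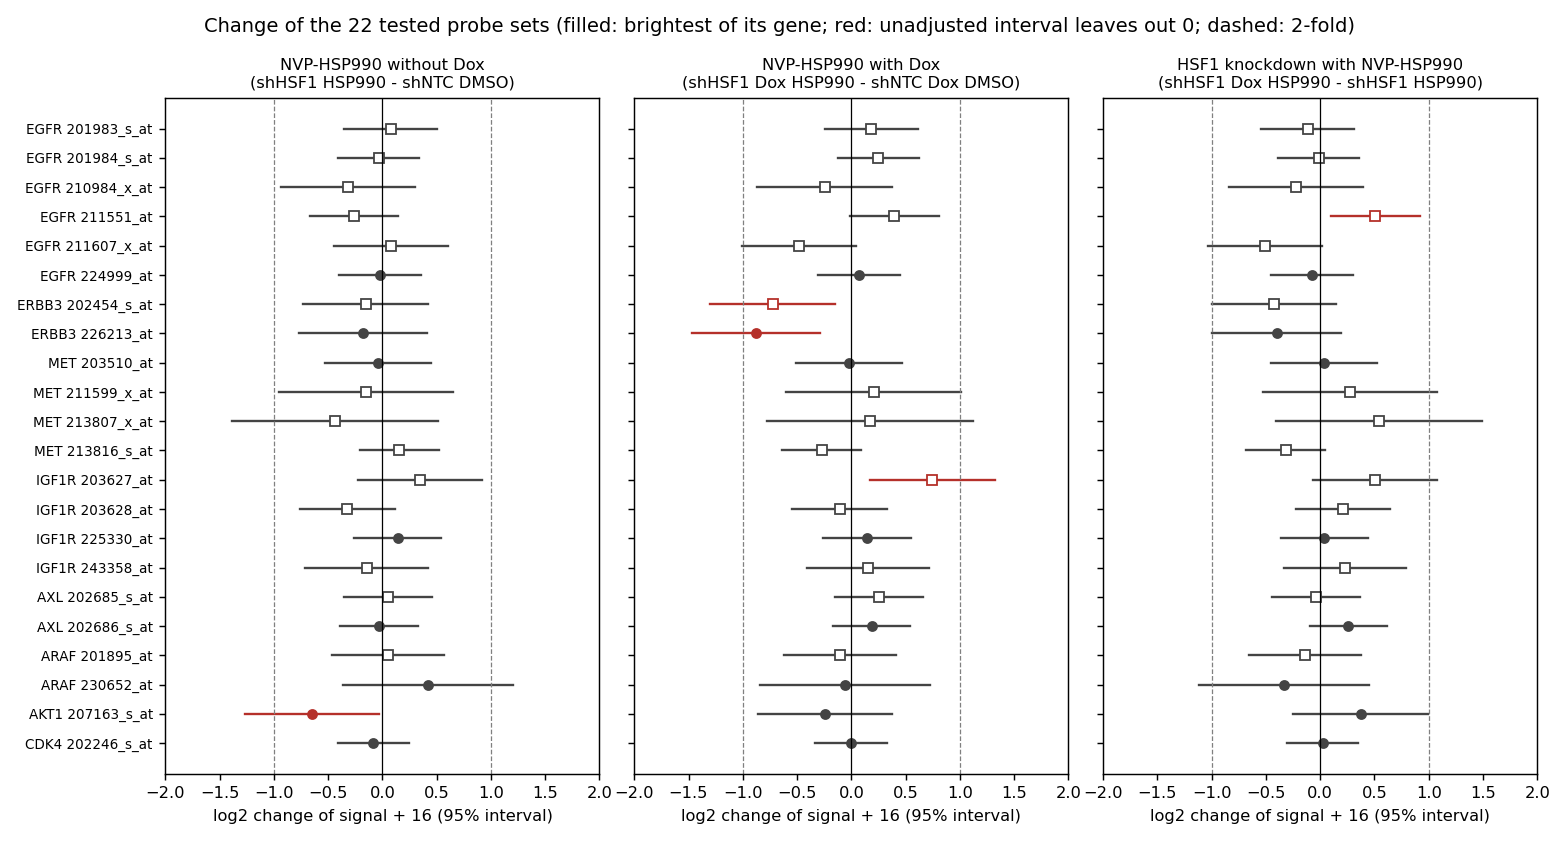
Log2 changes of signal + 16 (x axis, with 95% intervals) for the 22 tested probe sets of the kinase clients (y axis) with NVP-HSP990 without Doxycycline, with NVP-HSP990 and Doxycycline, and with HSF1 knockdown under NVP-HSP990. Filled circles are the brightest probe set of each gene, open squares the others, red those whose unadjusted interval leaves out 0, and dashed lines mark 2-fold. The estimates all lie between the dashed lines, and those for ERBB3 lie farthest below 0 in the middle panel.

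EGFR, the receptor of EGF, TGFA and HBEGF, had the most probe sets. Its brightest, 224999_at, had signals of 230 and 236 in the DMSO control, 207 and 203 in the Doxycycline control, 248 and 211 in the inhibitor group, and 232 and 201 in the knockdown group. All 8 arrays lay within 1.24-fold of each other, and the inhibitor groups overlapped the DMSO groups. The log2 change was -0.02 (95% interval -0.40 to 0.35) with NVP-HSP990 and 0.07 (-0.31 to 0.45) with Doxycycline added. Over its 6 tested probe sets the changes ran from -0.32 to 0.08 and from -0.48 to 0.40, with 4 of 6 and 2 of 6 below 0. The probe sets of EGFR thus gave no common direction.

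ERBB3, a partner of ERBB2 and EGFR that binds neuregulins and has little kinase activity of its own, came nearest to the threshold. Its probe set 226213_at had signals of 525 and 472 in the DMSO control and 655 and 576 in the Doxycycline control. They were 571 and 334 in the inhibitor group, and 410.4 and 260 in the knockdown group. The arrays of the inhibitor without Doxycycline lay on either side of the DMSO arrays. Both arrays of the knockdown group lay below both arrays of the Doxycycline control. Of all probe sets tested, 43.5% separated in this last comparison, in either direction. The log2 change was -0.18 (95% interval -0.77 to 0.41) without Doxycycline and -0.88 (-1.47 to -0.29, adjusted p = 0.105 from limma) with it. The other tested probe set, 202454_s_at, gave -0.16 and -0.72 (adjusted p = 0.164), and 3 further ones did not reach the filter. The Doxycycline control against the DMSO control gave 0.29 for 226213_at (adjusted p = 1.00), and the knockdown group against the inhibitor group gave -0.40 (adjusted p = 0.567). With the set of arrays as a block in the limma fit, ERBB3 226213_at was called in the second comparison (adjusted p = 0.0242), where 1723 of all 24631 probe sets were called. In the second set of arrays the value was -1.10 and in the first -0.65.

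SOX10, a neural crest factor of the melanocyte lineage, is given beside ERBB3. Its signals were 706 and 820 in the DMSO control, 678 and 1069 in the Doxycycline control, 782 and 475 in the inhibitor group, and 676 and 272 in the knockdown group. Its log2 change was -0.31 without and -0.96 with Doxycycline (adjusted p = 1.00 and 0.213). MITF, the master regulator of the lineage, gave 0.19 and 0.23, and S100B 0.29 and -0.68. The summed signal of the 7 melanocyte markers was 2315 to 2767 in the DMSO control, 2070.2 to 2799 in the Doxycycline control, 2637 to 2703 in the inhibitor group, and 1964 to 2429.8 in the knockdown group. A part of the lineage markers in the ERBB3 values was not tested, and fewer cells of a type and less RNA per cell cannot be told apart in such extracts.

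MET, the receptor of HGF, was measured by 4 probe sets. The brightest, 203510_at, had signals of 2326 and 3385 in the DMSO control, 2378 and 3372 in the Doxycycline control, 2560.1 and 2896 in the inhibitor group, and 2707 and 2872 in the knockdown group. The arrays separated by set and not by group. The 4 arrays of the first set reached at most 2707 and the 4 titled Repeat 1 at least 2872. The log2 changes were -0.04 (95% interval -0.53 to 0.45) and -0.02 (-0.51 to 0.47), since the inhibitor arrays were above the controls in the first set (0.14 and 0.19) and below them in the second (-0.22 and -0.23). The other probe sets of MET ran from -0.44 to 0.15 and from -0.27 to 0.21. Probe set 213807_x_at had signals of 2.2 to 39.5, with the lowest in the array of the highest ACTB ratio and the highest in that of the lowest ratio.

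IGF1R, the receptor of the insulin-like growth factors, gave probe sets of both signs. The brightest, 225330_at, had signals of 424 and 506 in the DMSO control, 511 and 441 in the Doxycycline control, 504 and 521 in the inhibitor group, and 459 and 602 in the knockdown group. Its changes were 0.14 in both comparisons (95% intervals -0.26 to 0.54 and -0.26 to 0.55). Probe set 203627_at had 175 and 225 in the DMSO control, 196 and 234 in the Doxycycline control, 198 and 332 in the inhibitor group, and 315 and 437 in the knockdown group. Both arrays of the last group were above both arrays of the Doxycycline control, and the change was 0.75 (0.17 to 1.32, adjusted p = 0.152 from limma), after 0.35 (adjusted p = 1.00) without Doxycycline. With the set of arrays as a block it was called with Doxycycline (adjusted p = 0.0265) and in the average (0.55, adjusted p = 0.0344, in place of 0.180). That fit called 1723 and 956 of all 24631 probe sets in these comparisons. The remaining probe sets, 203628_at and 243358_at, gave -0.32 and -0.15 without Doxycycline and -0.11 and 0.15 with it, and 208441_at was below the median in all arrays.

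**Figure D2:**
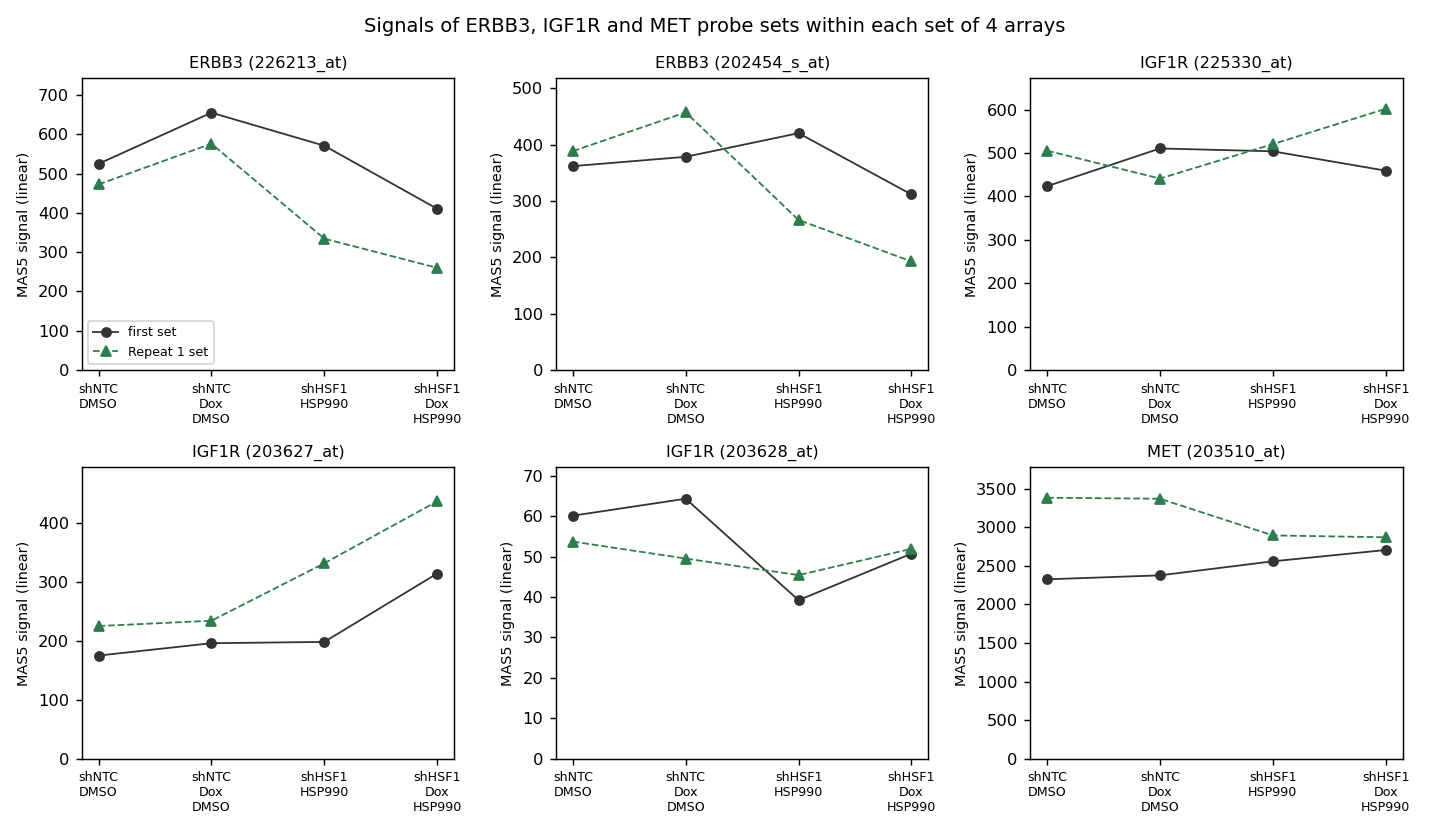
MAS5 signals (y axis, linear) of 6 probe sets of ERBB3, IGF1R and MET over the 4 groups (x axis), with lines joining the arrays of the first set (circles) and of the Repeat 1 set (triangles). Both ERBB3 probe sets have their lowest signal of each set in the knockdown group, IGF1R 203627_at has its highest there while 225330_at and 203628_at do not follow it in both sets, and the MET lines keep apart by set.

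AXL, the GAS6 receptor that marks dedifferentiated melanoma, was even across the arrays. Probe set 202686_s_at had signals of 2723 and 2948 in the DMSO control, 2611 and 3258 in the Doxycycline control, 2736 and 2807 in the inhibitor group, and 3259 and 3390.3 in the knockdown group. The inhibitor arrays without Doxycycline lay between the DMSO arrays, and those with it were just above theirs. The changes were -0.03 (95% interval -0.39 to 0.32) and 0.19 (-0.17 to 0.54). The second probe set, 202685_s_at, gave 0.06 and 0.25.

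ARAF, a kinase at the top of the MAPK cascade, had wide spreads. Probe set 230652_at had signals of 189 and 130 in the DMSO control, 265 and 113 in the Doxycycline control, 276 and 166 in the inhibitor group, and 173 and 162 in the knockdown group. In every group the first array was above the second, and the 4 arrays of the first set were all above those of the second. The changes were 0.42 (95% interval -0.37 to 1.20) and -0.06 (-0.84 to 0.73), and the first of these intervals passes 2-fold. The other probe set, 201895_at, gave 0.05 and -0.10.

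AKT1, the kinase downstream of PI3K, had 1 probe set, 207163_s_at, and it was the 1 probe set under an unadjusted p of 0.05 with NVP-HSP990. Its signals were 467 and 346 in the DMSO control and 501 and 308 in the Doxycycline control. They were 217 and 289 in the inhibitor group, and 266 and 406 in the knockdown group. Both inhibitor arrays without Doxycycline lay below both DMSO arrays, and of those of the knockdown group 1 lay below both arrays of the Doxycycline control and 1 between them. The change was -0.65 (95% interval -1.27 to -0.03, adjusted p = 1.00 from limma) and, with Doxycycline added, -0.25 (-0.86 to 0.37, adjusted p = 0.701). The 3 arrays of lowest ACTB ratio (4.73, 5.63 and 6.66) had the 3 highest AKT1 signals (501, 406 and 467). The array of the highest ratio (46.8) had 308 and that at a ratio of 13.7 had 346, both above those at ratios of 8.27, 10.3 and 18.9 (289, 266 and 217). Whether RNA integrity had a part in the AKT1 values was not tested apart from 1 alternative fit, chosen after seeing the data. With the log2 ratio as a covariate in limma, the changes were -0.55 (adjusted p = 0.649) and -0.49 (adjusted p = 0.188). In the average the change was -0.52 (adjusted p = 0.0734, in place of 0.307).

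CDK4, the cyclin D kinase of the G1 phase, was the most even of the 8 genes. Probe set 202246_s_at had signals of 1639 and 1666 in the DMSO control, 1586 and 1584 in the Doxycycline control, 1510.3 and 1609.6 in the inhibitor group, and 1465 and 1713 in the knockdown group. The highest array was 1.17-fold the lowest. Both arrays of the inhibitor group lay below both of the DMSO control, and those of the knockdown group lay on either side of the Doxycycline control. The changes were -0.08 (95% interval -0.41 to 0.25) and -0.00080 (-0.33 to 0.33), with the narrowest intervals of the brightest probe sets.

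**Figure D3:**
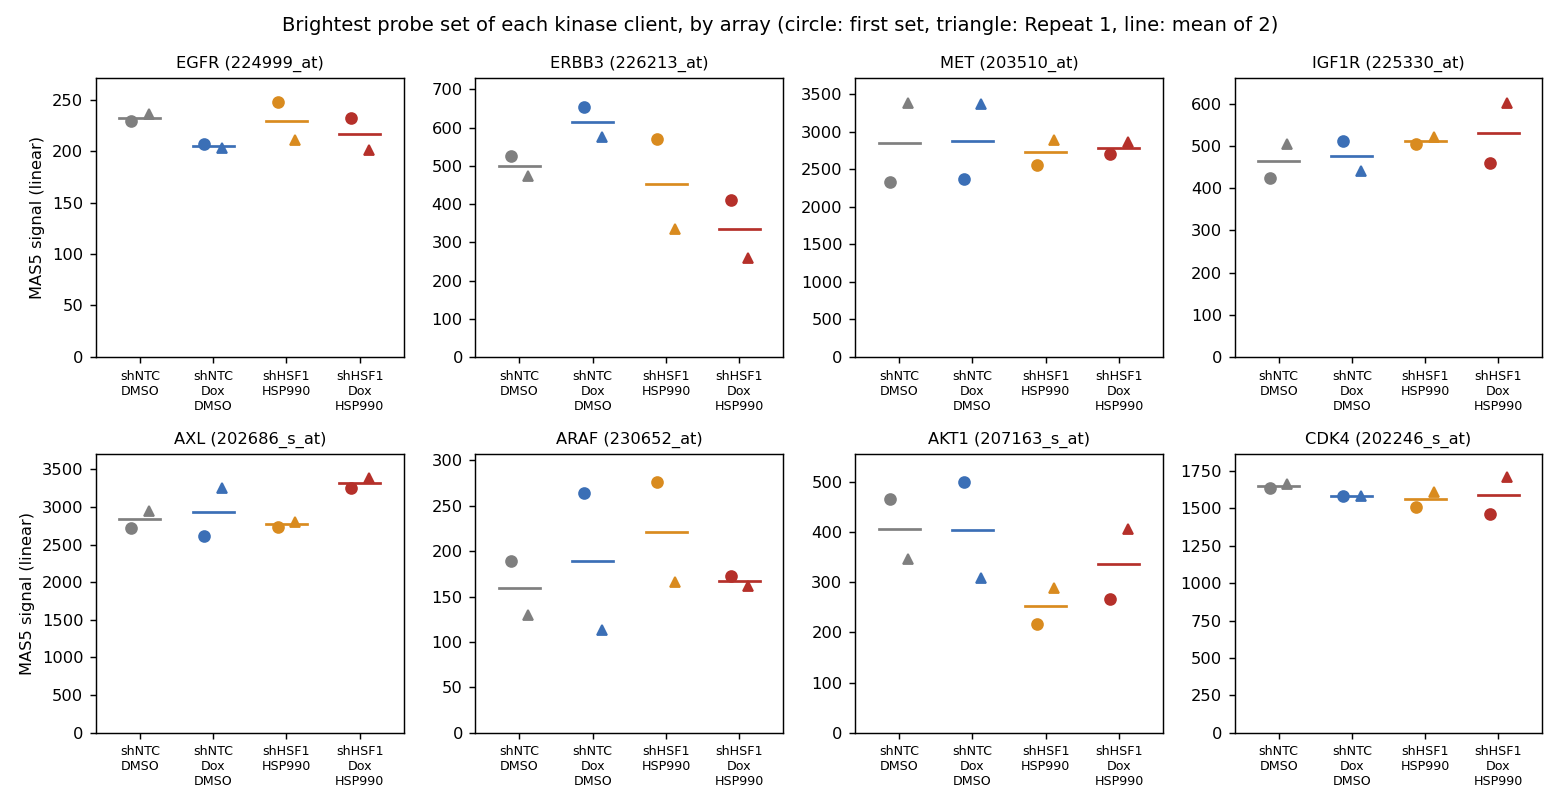
MAS5 signals (y axis, linear, from 0) of the brightest probe set of each kinase client in the 4 groups (x axis). Circles are the first set of arrays, triangles the arrays titled Repeat 1 and lines the mean of 2. CDK4 and EGFR are even across the groups, ERBB3 and AKT1 are spread, and in MET and ARAF the circles and triangles separate.

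The knockdown group against the inhibitor group, which compares HSF1 knockdown under NVP-HSP990, called 0 of the 22 probe sets (background 1.88%, 462 probe sets, of which 330 were lower). At an unadjusted p under 0.05 it was 1 of 22 (background 14%), EGFR 211551_at, a dim probe set with signals of 6.1 to 22 and a change of 0.51 (adjusted p = 0.232 from limma). The brightest probe sets gave -0.40 for ERBB3, -0.33 for ARAF, 0.37 for AKT1, 0.26 for AXL and -0.08 to 0.04 for EGFR, CDK4, MET and IGF1R. The Doxycycline control against the DMSO control gave 0 of 22 by limma (background 0%, with 2.28% of all probe sets and 0 of 22 at an unadjusted p under 0.05), and its values ran from -0.30 to 0.29. The difference between these effects, the interaction, was called for 0 of 22 (background 0.463%). It was under an unadjusted p of 0.05 for 1 of 22, again EGFR 211551_at (0.66, adjusted p = 0.441, background 9.37%). The knockdown group against the inhibitor group thus gave no call among the client mRNAs, and beside these backgrounds 0 of 22 does not set them apart.

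The 2 sets of arrays were compared as well, a comparison added after the data were seen. Between the first arrays and those titled Repeat 1, with the groups in the model, limma called 0 of 22 (background 0%), and 4 of 22 had an unadjusted p under 0.05 (background 16.8%). They were ARAF 230652_at (-0.59, Repeat 1 minus first), ERBB3 226213_at (-0.42), IGF1R 203627_at (0.43) and MET 203510_at (0.33). The adjusted p-values were 0.131 to 0.206. The probe sets of ERBB3 and IGF1R that came nearest to a call with the inhibitor were thus among these 4.

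The 7 probe sets left untested had signals of 0.1 to 13.6. They were 3 of ERBB3 (1563252_at, 1563253_s_at and 215638_at), 3 of EGFR (1565483_at, 1565484_x_at and 211550_at) and 1 of IGF1R (208441_at), and with no filter none was called.

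The heat shock genes moved in the same arrays. HSPA6 had signals of 8 and 15.5 in the DMSO control, 5.1 and 12.7 in the Doxycycline control, 1681 and 1328.5 in the inhibitor group, and 18.3 and 12.4 in the knockdown group. Of 10 heat shock genes, 9 were called higher with NVP-HSP990 (median of the 10 genes 1.77, background 0.197% of all genes). All 10 were called lower with the knockdown (median -2.00, background 2.18%). Earlier results of these arrays had named these genes, so that their calls are no independent test. BAG3, the HSP70 cochaperone, rose by 1.91 and fell by 2.73 on the log2 scale. In the knockdown group against the Doxycycline control, 8 of the 10 did not pass the test and BAG3 and HSPB1 fell (-0.84 and -1.14). The rise of BAG3 was not called without the first array of the DMSO control (1.83), and its fall in this last comparison was not called without either array of the DMSO control, the second of the Doxycycline control, or either of the knockdown group.

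**Figure D4:**
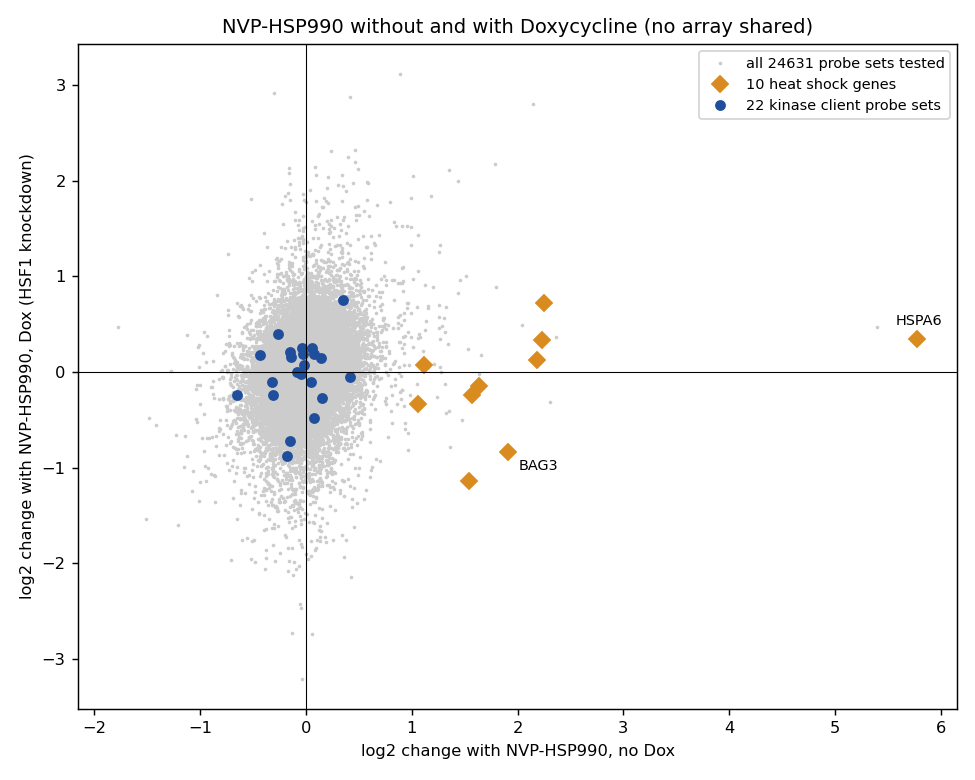
Log2 change with NVP-HSP990 without Doxycycline (x axis) and with Doxycycline, which adds the HSF1 knockdown (y axis), for all 24631 probe sets tested (grey), the 22 probe sets of the kinase clients (blue circles) and 10 heat shock genes (orange diamonds). The kinase clients lie within the grey cloud around 0, and the heat shock genes lie to its right, with HSPA6 at 5.78.

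Around the kinases, genes were followed in fixed lists, each by its brightest tested probe set and with p-values adjusted over all probe sets. With NVP-HSP990 alone, where 0.197% of all genes were called, none passed the test outside the heat shock genes. Among other HSP90 client kinases 23 of 30 were tested and 0 were called in any comparison (median change -0.13 with NVP-HSP990 and -0.01 with Doxycycline added, beside 0.0097 and 0.01 over all genes). ERBB2, a strong client as a protein, gave 0.02 and 0.04. Among 14 other receptor tyrosine kinases, 8 partners and inhibitors of CDK4 and 5 members of the RAF-MEK-ERK cascade, 0 were called in any comparison. Of all 12680 genes tested, 0% to 4.76% were called, depending on the comparison. Beside these shares, 0 calls do not set these lists or the other client kinases apart. CCND1, the cyclin of CDK4, gave -0.31 and -0.07. CDC37, the kinase cochaperone, gave -0.23 and 0.23. Of 10 genes for HSP90 and its kinase cochaperones only CDC37L1, a relative of CDC37, passed a test, with the knockdown (0.73, adjusted p = 0.0495), where 2.18% of all genes were called.

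Of 8 ligands of the receptors tested, 1 rose and 1 fell in the knockdown group against the Doxycycline control, where 4.76% of all 12680 genes tested were called by their brightest probe set. HBEGF, which binds EGFR, had signals of 288.3 and 288.3 in the DMSO control, 177 and 140 in the Doxycycline control, 298 and 295 in the inhibitor group, and 709.6 and 566 in the knockdown group. It rose by 1.91 in the knockdown group against the Doxycycline control (adjusted p = 0.000805 from limma), by 1.06 with the knockdown (adjusted p = 0.0176) and by 0.97 in the average. Without Doxycycline the change was 0.04 (adjusted p = 1.00). TGFA, another ligand of EGFR, had signals of 2209.5 and 1959 in the Doxycycline control and of 1237 and 855 in the knockdown group, and fell by 1.00 (adjusted p = 0.0301). NRG1, the ligand of ERBB3, gave 0.63 (adjusted p = 0.212). The median of the 8 ligands was 0.07, beside 0.01 over all genes. The test of a difference between ligands and receptors as groups was not made.

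Downstream, in the knockdown group against the Doxycycline control, 1 of 12 adaptors and feedback genes, 1 of 12 genes of the PI3K-AKT pathway and 2 of 13 ERK output genes passed the test, beside the same 4.76% of all genes. SOS1, the exchange factor that loads RAS, fell by 0.87 (adjusted p = 0.0280). FOXO1, a transcription factor held out of the nucleus by AKT, fell by 0.91 (adjusted p = 0.0341). EGR1, an immediate early gene of ERK, rose by 1.11 (adjusted p = 0.00341 from limma) and also with the knockdown (0.87, adjusted p = 0.0169). IER3, another, fell by 0.69 (adjusted p = 0.0417 from limma) and by 0.84 in the average (adjusted p = 0.00745). The change of IER3 without Doxycycline was larger, -0.99, and not called (adjusted p = 0.0633 from limma). With the knockdown IER3 gave 0.30 (adjusted p = 0.443 from limma). The 13 ERK output genes had a median of -0.35, beside 0.01 over all genes. Of the 13, 5 had an unadjusted p under 0.05, of which 4 were lower. Over all probe sets tested it was 18.4%, of which 2219 of 4542 were lower. In the fit of the brightest probe set of each gene it was 2472 of 12672 genes. Of the fibroblast markers LUM rose (0.80, adjusted p = 0.0243 from limma). The summed signal of all 6 was 500 to 603.1 in the Doxycycline control and 891 to 929 in the knockdown group. Most of this sum was LUM, at 460 and 374 in the former and 756 and 708 in the latter. COL1A2 and COL3A1 were below the array median in all arrays. A part of the fibroblast markers in the values above was not tested.

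Most of these calls were lost with 1 array fewer. Where that array is outside the comparison, the log2 change is the same and only the estimate of the spread and its degrees of freedom differ. HBEGF and EGR1 in the knockdown group against the Doxycycline control kept an adjusted p under 0.05 with each of the 8 arrays left out. The calls of TGFA and FOXO1 were lost without either array of the DMSO control, either of the Doxycycline control, or the second of the knockdown group, and those of SOS1 and LUM without either array of the DMSO control, the second of the Doxycycline control, or either of the knockdown group. That of IER3 was lost without any array but the first of the Doxycycline control, and its average without either of the DMSO control. With the knockdown, the calls of EGR1 and CDC37L1 were lost without any array but those of the Doxycycline control, and that of HBEGF without either array of the inhibitor group or the first of the knockdown group. The average of HBEGF was lost without the first array of the DMSO control. Over all alternatives the log2 changes of the knockdown group against the Doxycycline control were -1.27 to -0.74 for TGFA, -1.12 to -0.46 for FOXO1, -1.02 to -0.22 for SOS1, -0.86 to -0.53 for IER3, 0.54 to 0.94 for LUM, 0.99 to 1.17 for EGR1 and 0.94 to 2.07 for HBEGF. With the knockdown they were 0.70 to 0.92 for EGR1, 0.56 to 1.21 for HBEGF and 0.05 to 0.79 for CDC37L1. The average of HBEGF ran from 0.46 to 1.05. For HBEGF, EGR1, FOXO1, SOS1, LUM and CDC37L1, the values nearest to 0 came from the mean of the probe sets of each gene. Under it, in place of the brightest probe set, HBEGF was called in all 3 of these comparisons (adjusted p = 0.00474, 0.0436 and 0.0271 from limma). EGR1 was called in the knockdown group against the Doxycycline control (adjusted p = 0.0167 from limma). With the knockdown EGR1 was not called (0.70, adjusted p = 0.0765 from limma). TGFA (-0.89, adjusted p = 0.116 from limma), LUM (0.54, adjusted p = 0.0606), FOXO1, SOS1 and CDC37L1 were not called either.

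**Figure D5:**
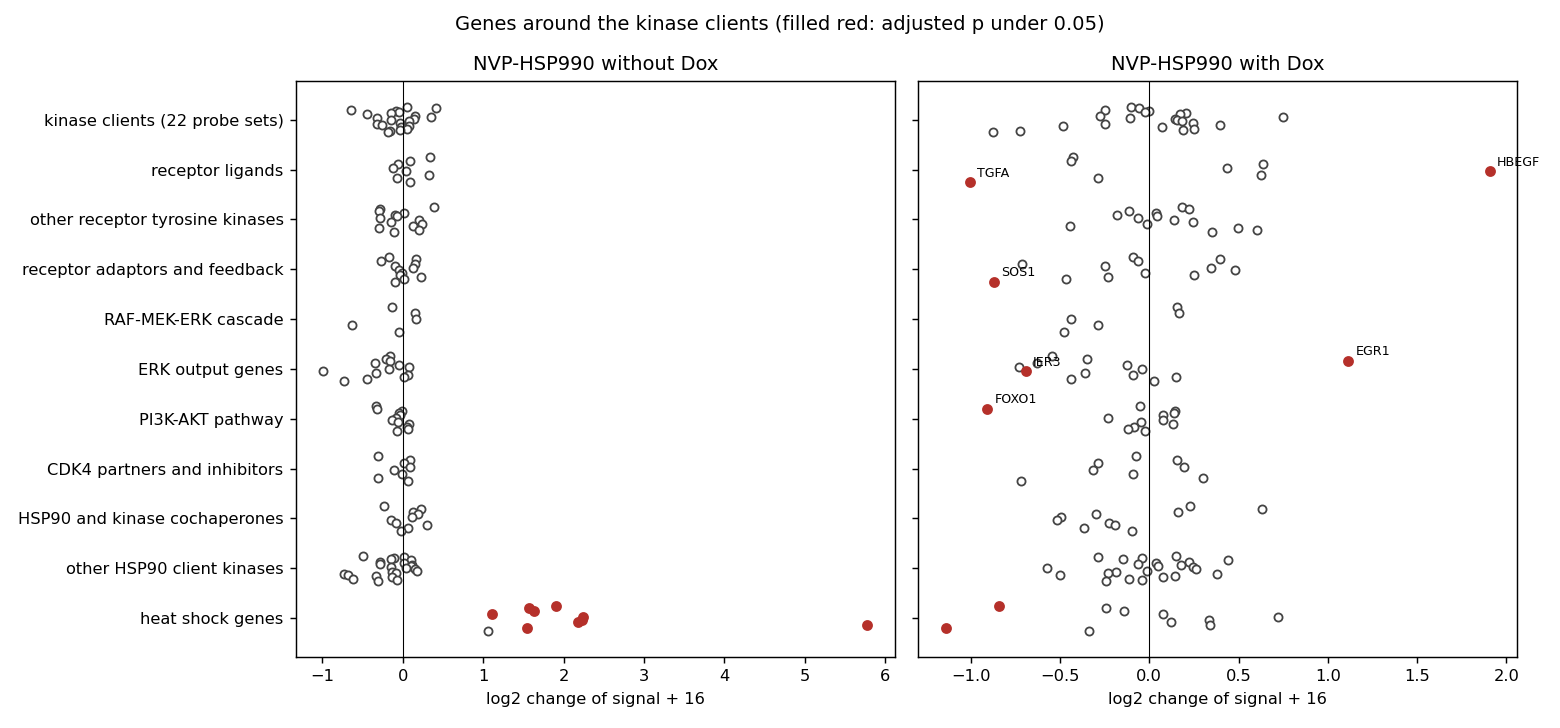
Log2 change of signal + 16 (x axis) for the 22 probe sets of the kinase clients and for the genes of 10 lists (y axis, 1 point per gene) with NVP-HSP990 without Doxycycline and with Doxycycline. Filled red points have an adjusted p under 0.05. On the left they are all heat shock genes, and on the right they include HBEGF and EGR1 above 0 and TGFA, SOS1, FOXO1 and IER3 below 0, with none among the kinase clients.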

How the data were processed

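A375 cells with shNTC or shHSF1 hairpins were profiled on 8 HG-U133 Plus2 arrays in 4 groups, taken with the replicate from the sample titles. The authors deposited linear signal intensities from MAS5 (version not given in the sources used here), with a trimmed mean of 150 per array, as the values themselves show when 2% are trimmed at each end. No further normalization was applied. Of 54675 probe sets, 41091 had a single symbol in the platform annotation, 1801 several, 11721 none and 62 were controls. Only single-symbol probe sets were used, and symbols can be old. Log2(signal + 16) was fitted with limma 3.58.1 in R 4.3.3 (means model of 4 groups, trended empirical Bayes variances, 4 residual and 6.05 prior degrees of freedom) on 24631 probe sets at or above their array's median in at least 2 of 8 arrays. The added 16 makes changes of dim probe sets smaller. Tests were two-sided, adjusted by Benjamini-Hochberg over all of them, and called at an adjusted p under 0.05. For arrays, their number limits the precision. The steps were tested on simulated data.

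The members and gene lists were chosen with earlier results of these data known. The rule named all members, HSF1, HSPA6, BAG3 and, per list, up to 4 called genes whose arrays did not overlap. ERBB2, CCND1, CDC37, NRG1, SOX10, MITF, S100B and HSPB1 were named after their values were seen. Genes of like pattern were to be named for called members, and none was called. Alternatives were 1 or 64 in place of 16, no filter or a stricter one, quantile normalization, median centring, the brightest or the mean probe set per gene, no variance trend, a fit to the compared arrays alone, a replicate block, the methods' t-test, each array left out, and, added after seeing the data, the ACTB ratio as a covariate. Promoter windows came from RefSeq (GRCh38.p14) and plots from matplotlib 3.10.9.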

Additional observations from a re-analysis of the deposited data

Results flagged for a closer look

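For 4 genes named above, the change between knockdown and inhibitor groups differed from that between the Doxycycline and DMSO controls, by the interaction term of limma. The difference was -5.44 on the log2 scale for HSPA6 (standard error 0.34, adjusted p = 0.000237), -2.74 for BAG3 (standard error 0.24, adjusted p = 0.00346), 1.87 for HBEGF (standard error 0.25, adjusted p = 0.0177) and 1.28 for EGR1 (standard error 0.21, adjusted p = 0.0324). For HBEGF, Doxycycline gave -0.81 in shNTC and 1.06 in inhibitor-treated shHSF1 cells, and for EGR1 -0.41 and 0.87. Its call was lost for HBEGF without any array but the first of the Doxycycline control, and for EGR1 without any but the second of it, with 1.71 to 2.03 and 1.02 to 1.33 over the alternatives that lost it. With the mean of the probe sets of each gene the difference was 0.95 for HBEGF (adjusted p = 0.0483) and 1.02 for EGR1 (adjusted p = 0.140). No probe set of the kinase clients had such a difference past the threshold. Groups of 2 arrays are too small for a test of outlying samples.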

How the results depend on the processing

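The count of kinase client probe sets called stayed at 0 under every alternative but the replicate block, which called 2 with NVP-HSP990 and Doxycycline (IGF1R 203627_at and ERBB3 226213_at) and 1 in the average (IGF1R 203627_at). In these comparisons the block called 1723 and 956 of all 24631 probe sets. Beside these shares, 2 and 1 of 22 do not set the kinase clients apart. With each array left out the count of kinase client probe sets ran from 0 to 0 in all 6 comparisons. The labels do not say what the number of an array marks. Deviations of same-numbered arrays correlated at r = 0.22 and -0.07 in the comparisons with NVP-HSP990 without and with Doxycycline, 0.65 with the knockdown and 0.44 with Doxycycline, so that 3 of 4 were above 0.1. Whether the numbers pair the arrays is therefore not settled, and the calls under the block stand beside those without it. Over 20 to 21 alternatives a comparison, the brightest probe sets of ARAF, AKT1, CDK4 and IGF1R kept their sign with NVP-HSP990, and those of MET, EGFR, AXL and ERBB3 did not. AKT1 ran there from -0.86 to -0.44, and ERBB3 with Doxycycline from -1.19 for 226213_at to -0.32. The -0.32 is not a value of 226213_at alone. It came from averaging the 5 ERBB3 probe sets, of which only 2 passed the filter and the others were dim.

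Counts over all probe sets moved more. With NVP-HSP990 they were 0 to 49 (33 as reported), with Doxycycline added 0 to 1723 (981), in the average 23 to 956 (414), with the knockdown 0 to 932 (462), in the interaction 0 to 218 (114) and with Doxycycline 0. Apart from Doxycycline, the lowest counts came from the t-test that the methods name, and the highest from the replicate block or, with NVP-HSP990, from fitting only its own arrays. Medians of all probe sets stayed within 0.1 of 0 (log2). With 2 arrays a group, changes inside the intervals given above cannot be seen.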
